A study of Mus musculus with 12 samples.

Results

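The 40 genes described here encode the subunits of the mouse proteasome and the proteins that assemble and activate it. They were chosen by name, as the protein-coding genes with a symbol of Psma, Psmb, Psmc, Psmd or Psme followed by a number, leaving out Psmb8, Psmb9 and Psmb11, and they are 40 of the 51826 genes quantified. Polyadenylated RNA was read in 12 mouse thymus libraries. The 9 tumors are T cell acute lymphoblastic leukemias (T-ALL) of mice in which expression of the receptor chain IL-7Rα can be switched on by tetracycline, labelled Dox induced, and the 3 controls are healthy thymus of mice with the genotype control. All 12 carry the strain label F5. The labels used here give no age, no dose or length of induction, no promoter that drives the receptor, and no statement that each library is its own animal. Any p-value here is therefore set against the spread between libraries, part of which may be technical.

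The proteasome is the protease that degrades ubiquitin-tagged proteins. Its barrel, the 20S core particle, is built of outer rings of Psma (alpha) subunits and inner rings of Psmb (beta) subunits, of which Psmb5, Psmb6 and Psmb7 cut proteins. The 19S regulatory particle caps the barrel: its base holds the ring of Psmc ATPases that unfold the substrate, and its lid of Psmd subunits includes Psmd14, the deubiquitinase that removes the tag. Both particles are needed in set proportions, cells that make much protein depend on them, and the transcription factor Nfe2l1 raises many of these genes when proteasome activity is short. Here the core particle means the 14 genes Psma1 to Psma7 and Psmb1 to Psmb7, and the 19S particle means the 17 genes Psmc1 to Psmc6, Psmd1 to Psmd4, Psmd6 to Psmd8 and Psmd11 to Psmd14. The other 9 members are the base assembly chaperones Psmd5, Psmd9 and Psmd10, the activators Psme1 to Psme4, the inducible core subunit Psmb10 and Psma8, a germ cell paralog of Psma7.

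Short sequences known as binding motifs were looked for in the promoters, as a description with no test. RefSeq start sites (build GRCm38.p6) were matched for 33 of the 40 members, and each window ran from 250 bases before to 50 bases after the start. The letters CCGGAAG are the common core of binding sites of the ETS family of transcription factors. They stood on either strand in 9 of the 14 genes of the 19S particle with a window and in 1 of the 11 core genes with one. In all, 12 of the 33 members (36.4%) held them, as did 9.93% of 27025 genes with a window. These 27025 are more than the 21915 protein-coding genes of the series, so they may differ in kind from the members, which are all protein coding. The counts are of genes, and a gene with more than 1 start, such as Psma6 or Psmc2, had more chances of a match. The letters TGACNNNGC, the core of the element bound by NFE2L1 and NFE2L2, stood in 6 of the 33 (18.2%, against 13.99% of all genes), 2 of the 11 core and 2 of the 14 genes of the 19S particle among them. CCAAT, the box bound by NF-Y, stood in 12 (36.4%, against 41.1%), with 6 of the 11 core genes and 4 of the 14. Matches of different motifs were allowed to overlap, and a match is a description of the sequence and not a binding site. The sites below show the ETS letters of 6 genes of the 19S particle, the same letters in the activator Psme4 and in Psma6, the core gene that held them, and the NFE2L1 letters of 2 catalytic subunits. Each is 30 bases of the gene's own strand, 5′ to 3′, with the matched letters in capitals, read as CTTCCGG where the match lies on the opposite strand.
Psmc1, chr12:100110163-100110192, plus strand: tggtggatgcaCTTCCGGcggtggcgattt
Psmc2, chr5:21785180-21785209, plus strand: accagtgagcaCTTCCGGgatggggctcgc
Psmc6, chr14:45329713-45329742, plus strand: aggcgggccagCCGGAAGgggcggagccag
Psmd2, chr16:20651615-20651644, plus strand: tccgcagggcgCTTCCGGtctggaggacaa
Psmd6, chr14:14120972-14121001, minus strand: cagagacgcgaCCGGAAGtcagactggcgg
Psmd12, chr11:107479498-107479527, plus strand: gatgagcgggcgaCTTCCGGtgcgagtgac
Psme4, chr11:30771711-30771740, plus strand: gtggccccgccCCGGAAGtgacttgaggcc
Psma6, chr12:55398682-55398711, plus strand: agagccaccacCCGGAAGcccgcggaccgc
Psmb5, chr14:54618023-54618052, minus strand: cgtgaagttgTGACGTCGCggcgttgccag
Psmb6, chr11:70525327-70525356, plus strand: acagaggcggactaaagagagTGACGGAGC

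The libraries fall into 2 kinds that follow the groups only in part. Totals ran from 8133152 to 34769946 estimated counts, and the 40 genes together took 0.0355% to 0.150% of them. Background was read from 1452 receptor genes for odors and pheromones, whose expression in thymocytes is not known. Their median was 1.31 to 1.78 TPM (a level per transcript length that sums to the same total in each library) in the controls. Tumors 7 to 9 had 0.415 to 1.497 TPM, and tumors 1 to 6 had 0 to 0.0945 TPM. The median of the 40 genes over their protein-coding transcripts was 1.18 to 2.52 times that background in the controls and tumors 7 to 9, and 38.1 to 146 times in tumors 1 to 4, with tumors 5 and 6 having a background of 0. Over all transcripts, of the members and of the receptors, it was 3.16 to 5.22 times in the controls and tumors 7 to 9, and 56.2 to 222 times in tumors 1 to 4. By coding transcripts 1 or 2 members lay above 5 times the background in the controls and tumors 7 to 9, against 37 to 39 in tumors 1 to 4. Mitochondrial genes took 31.6% to 69.3% of the counts of tumors 1 to 6, 0.0949% to 6.73% of the controls' and 2.54% to 11.1% in tumors 7 to 9. Levels of these genes were read in tumors 1 to 6, and a comparison of tumors with controls is also a comparison of background, and of the mitochondrial share, whose part in it was not tested. The 12 T lineage markers summed to 1640 to 2365 CPM in tumors 1 to 6 (counts relative to the library total, scaled by TMM factors). They summed to 51.8 to 101 CPM in the controls, and tumors 7 to 9 had 65.2 to 127 CPM. Markers of B cells summed to 1.22 to 14.2 CPM in tumors 1 to 6, those of dendritic cells to 4.41 to 22.8, of thymic epithelium to 3.06 to 18.1, of fibroblasts to 3.58 to 31.9 and of erythroid cells to 0 to 5.09. Macrophage markers summed to 14.4 to 152 and endothelial markers, which include Pecam1, to 175.5 to 1153. Macrophage markers were at 6.61 to 8.20 CPM in the controls, and tumors 7 to 9 had 7.07 to 7.86. Endothelial markers were at 22.0 to 67.0 CPM in the controls, and tumors 7 to 9 had 71.4 to 138. On this scale both lists were thus higher in tumors 1 to 6, as the members were, and their part in the members' values was not tested. In bulk tissue, fewer cells of a type and less RNA per cell cannot be told apart.

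Within tumors 1 to 6 the subunits that share a ring were not at equal RNA levels. Levels of different genes are compared here as TPM, which is per length, divided by the median TPM of the 31 core and 19S genes in the same library. In the alpha ring, Psma3 was highest at 2.43 ± 0.372 times the median subunit (SD, n = 6, as for all values of this kind). Its level was 1.97 in the lowest tumor and 2.87 in the highest. Psma5, another alpha subunit, was lowest at 0.751 ± 0.268, with values from 0.494 to 1.19. Over all transcripts, no tumor had Psma5 above Psma3.

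The catalytic subunits spanned most of the range of the beta ring. Psmb7, with trypsin-like activity, was the highest of the ring at 1.93 ± 0.487 times the median subunit and lay between 1.34 and 2.70 in the 6 tumors. Psmb6, with caspase-like activity, was at 0.663 ± 0.200 and ranged from 0.469 to 0.949. Psmb5, with chymotrypsin-like activity and the target of bortezomib, was the lowest of all 31 subunits at 0.190 ± 0.0809 and ranged from 0.0829 to 0.305. The order Psmb7, Psmb6, Psmb5 held in each of the 6 tumors over all transcripts, and the ranges did not overlap, while with coding transcripts alone tumor 5 had Psmb5 above Psmb6. The Psmb5 level is uncertain, since 74.0% of the 31-base words of its longer annotated transcript also occur in other genes, among which kallisto divides reads. Psmb2, another beta subunit, was at 0.541 ± 0.0613.

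In the 19S particle the ATPase Psmc3 was highest in its ring at 2.11 ± 0.843 times the median subunit, with values from 1.23 to 3.47, and the ATPase Psmc5 was lowest at 0.457 ± 0.107. Psmc4, also an ATPase of the ring, was at 1.48 ± 0.149. Of the other base subunits, Psmd4, a ubiquitin receptor, was at 1.01 ± 0.305 and Psmd2, a large scaffold subunit, at 0.480 ± 0.123. In the lid, the deubiquitinase Psmd14 was highest at 2.09 ± 0.848 and ranged from 1.03 to 3.37, while Psmd13 was lowest at 0.571 ± 0.193. The ATPase ring and the lid each held subunits on both sides of the median subunit.

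The assembly chaperones lay below the median subunit on average, and the activators lay on both sides of it. Psmd10, the chaperone also called gankyrin, was at 0.0770 ± 0.0281 times the median subunit on 12 to 97 counts per tumor, and Psmd5 was the highest chaperone at 0.558 ± 0.158. Psme1, a subunit of the interferon-induced PA28 activator, was at 1.82 ± 0.419, and Psme3, the nuclear PA28 gamma, was the lowest activator at 0.698 ± 0.172. The inducible catalytic subunit Psmb10, which replaces Psmb7 in the immunoproteasome, was at 0.197 ± 0.0982, below Psmb7 in all 6 tumors.

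**Figure D1:**
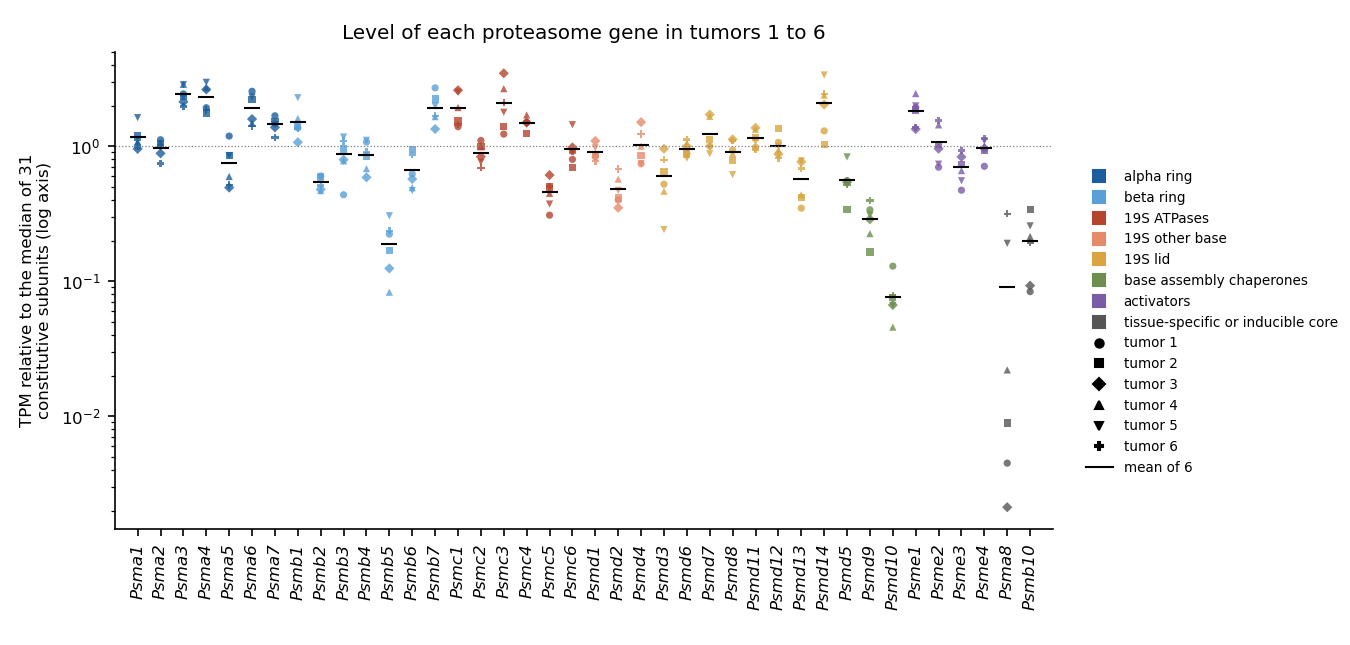
TPM of each of the 40 genes in tumors 1 to 6, divided by the median of the 31 core and 19S genes of the same tumor, on a log axis. Each marker is 1 tumor, the bar is the mean of 6 and colors are classes. Psmb5 lies lowest among the core and 19S genes at a mean of 0.190, Psma3 highest at 2.43, and Psma8 spreads widest, from 0.00212 to 0.316.

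Several of these levels rest on transcripts that are not annotated as protein coding. With protein-coding transcripts alone, Psma3 was at 0.518 ± 0.690 times the median subunit in tumors 1 to 6, Psmc3 at 0.761 ± 0.338 and Psmd14 at 0.952 ± 0.104, so none of them stood above the median subunit on average. Protein-coding transcripts held 12.1% to 60.7% of the Psma3 counts, 32.8% to 72.5% of the Psmc3 counts and 53.1% to 86.9% of the Psmd14 counts in these tumors. A short coding transcript of Psma3, Psma3-204, shares 79.01% of its 31-base words with other genes. Psma5 was then at 1.06 ± 0.507, above Psma3 in tumors 1, 2, 4 and 6 and below it in tumors 3 and 5, so their order was not kept. The coding transcript of Psma5 shares 66.5% of its 31-base words with other genes. Psma4, an alpha subunit, was then highest at 3.28 ± 0.779, and Psmb7 followed at 2.82 ± 0.919. The longest coding transcript of Psma4 shares 46.4% of its 31-base words with other genes, so its rank is uncertain too. Psmb5 was at 0.275 ± 0.105 and lay below Psmb6 (0.695 ± 0.271) and Psmb7 (2.82) on average, but in tumor 5 it was above Psmb6 (0.368 against 0.287), and the ranges of Psmb5 (0.139 to 0.380) and Psmb6 (0.287 to 1.00) overlapped. Psmb4, another beta subunit, was at 0.273 ± 0.127.

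The core and the 19S particle were close to each other in RNA level. The median TPM of the 14 core genes divided by that of the 17 genes of the 19S particle was 1.23, 1.28, 0.842, 1.08, 1.49 and 1.17 in tumors 1 to 6. The mean on the log2 scale was 0.22 ± 0.277 (SD, n = 6), a geometric mean of 1.17, and 5 of 6 tumors lay above 1, tumor 3 being below. The mean is smaller than the spread between tumors. The ratio was 1.92, 0.984 and 1.06 in controls 1 to 3 and 1.59, 0.977 and 1.25 in tumors 7 to 9, so the 3 sets overlapped. With protein-coding transcripts alone the ratio in tumors 1 to 6 was 0.995 to 1.84, with a log2 mean of 0.49 ± 0.342, and tumor 3 was again the lowest. No test was made, because the genes were chosen with results of these data known.

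**Figure D2:**
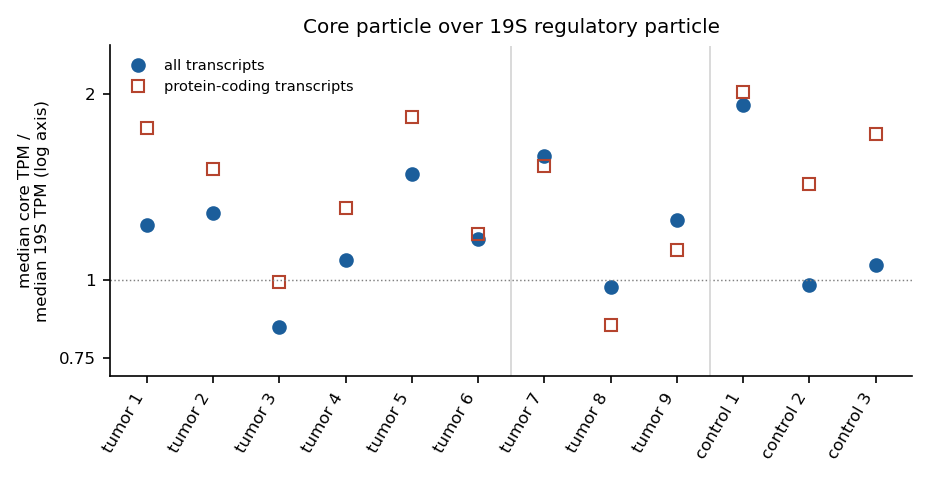
Median TPM of the 14 core genes over the median TPM of the 17 genes of the 19S particle in each of the 12 libraries, on a log axis. Filled circles use all transcripts and open squares protein-coding transcripts. The circles of tumors 1 to 6 lie between 0.842 and 1.49, and those of the controls and of tumors 7 to 9 overlap them.

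Parts of the same particle were also set against each other, over all transcripts. The median TPM of the alpha ring was 1.28 to 2.69 times that of the beta ring in tumors 1 to 6, above 1 in all 6, with a log2 mean of 0.90 ± 0.422. The median of the ATPases was 1.17 to 1.71 times that of the lid, again above 1 in all 6, with a log2 mean of 0.37 ± 0.213. With protein-coding transcripts alone this order was reversed, and the median of the ATPases lay below that of the lid in each of tumors 1 to 6. The alpha over beta ratio was also above 1 in all 3 controls (1.29 to 2.98) and in tumors 7 to 9 (2.22 to 2.48). It is thus not particular to tumors 1 to 6. Over all transcripts the ATPase over lid ratio was 0.907 to 1.26 in the controls, with 2 of 3 above 1. It was 0.766 to 1.27 in tumors 7 to 9, with 1 of 3 above 1, so these ranges overlap that of tumors 1 to 6.

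The tumors with the lowest and the highest core over 19S ratio differed in named subunits. Tumor 3, the lowest, held the highest relative levels of the ATPases Psmc1 (2.60) and Psmc3 (3.47) and of the lid subunits Psmd3 (0.958) and Psmd7 (1.72). The core subunit Psma5 (0.494) was lowest there. In the other direction, the 19S base subunit Psmd2 (0.350) was also lowest in tumor 3. Tumor 5, the highest, held the highest relative levels of the core subunits Psma1 (1.63), Psma4 (2.97) and Psmb1 (2.29) and the lowest of Psmd3 (0.241). In the other direction, the 19S subunits Psmc6 (1.44), Psmd13 (0.778) and Psmd14 (3.37) were also highest in tumor 5, and the core subunit Psmb6 (0.469) was lowest. Not every subunit at an extreme is named here. These values describe single libraries.

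Subunits differed in how steady they were over tumors 1 to 6. The SD of the log2 relative level was smallest for the ATPase Psmc4 (0.15) and the beta subunit Psmb2 (0.17), and largest for the lid subunit Psmd3 (0.70) and the catalytic Psmb5 (0.69). Psmb5 rested on 12 to 257 counts per tumor. For the 38 members at 5 CPM or more the median SD of log2 CPM was 0.43, against 0.56 for the 11389 genes of the series at that level. The order of the 31 core and 19S genes by TPM was alike between these tumors: Spearman's rho across genes, which are not independent replicates, was 0.673 to 0.886 in the 15 pairs. Between tumors 1 to 6 and the controls it was 0.196 to 0.505 in 18 pairs, and between tumors 1 to 6 and tumors 7 to 9 it was 0.175 to 0.591. Within the set of controls and tumors 7 to 9 it was 0.702 to 0.880. Transcript length did not order the levels in tumors 1 to 6, with rho between -0.12 and 0.20.

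The comparison that the labels set is tumors against controls, and no proteasome gene passed it. In edgeR's quasi-likelihood test of all 9 tumors against 3 controls, 0 of 40 members were called higher and 0 lower at a Benjamini-Hochberg adjusted p below 0.05, where 0% of all 40521 tested genes were called higher and 0.00494% lower. All 40 passed the low-count filter. At an unadjusted p below 0.05 there were 31 members and 7298 genes, and the smallest adjusted p of a member was 0.129. The median log2 fold change, tumor over control, was 2.73 for the 40 members, 2.30 for the core and 2.95 for the 19S particle, against -0.45 for all genes tested and 3.54 for 83 ribosomal protein genes. These directions hold for TMM scaling: with library totals the medians were -0.05 for the core and 0.54 for the 19S particle where all genes lay at -1.83, and on log2(TPM + 1), tested with limma, they were -0.75 and -0.40 where all genes lay at -1.14. On that scale 0 members were called higher and 5 lower, where 0.323% and 79.3% of all genes were. In the DESeq2 fit 24 members were higher and 0 lower (27.5% and 0.376% of its tested genes), which were 7 core genes, 13 genes of the 19S particle and the 4 activators.

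The members' values show where the spread came from. On the TMM scale, Psmb7 was at 2.89, 4.89 and 4.00 CPM in controls 1 to 3, at 4.87, 3.38 and 3.29 in tumors 7 to 9, and at 47.6 to 98.5 (median 71.5) in tumors 1 to 6. Psmc4 was at 2.19, 3.68 and 2.79 CPM in the controls, at 2.43, 2.71 and 1.54 in tumors 7 to 9, and at 42.5 to 65.3 (median 51.5) in tumors 1 to 6. Psmd14 was at 2.75, 2.71 and 2.50 CPM in the controls, at 4.69, 1.99 and 2.92 in tumors 7 to 9, and at 33.9 to 104 (median 47.5) in tumors 1 to 6. In each of these genes tumors 7 to 9 lay with the controls and tumors 1 to 6 stood far above both. Psme1 followed the same pattern, with 2.78, 1.55 and 1.43 CPM in the controls, 2.13, 3.56 and 2.00 in tumors 7 to 9, and 29.9 to 48.3 (median 42.5) in tumors 1 to 6. Of the 40 members, 38 had every one of tumors 1 to 6 above every control on this scale, as did 20.3% of all tested genes. Psmc2 had every one below, as did 26.5% of all genes, and Psma8 overlapped. Over all 9 tumors 0 members lay wholly above or below the controls, where 1.64% and 3.12% of all genes did. For tumors 7 to 9, 0 members lay wholly above the controls (7.24% of all genes) and 7 wholly below (7.31%), namely Psma5, Psma7, Psmb1, Psmb3, Psmb6, Psmd8 and Psmd13. The 40 genes took 0.106% to 0.256% of the counts outside mitochondrial genes in tumors 1 to 6, 0.0707% to 0.0927% of those of the controls, and 0.0399% to 0.0639% of those of tumors 7 to 9. Of all counts, with the mitochondrial ones, they took 0.0355% to 0.150% in tumors 1 to 6, which overlaps the 0.0660% to 0.0925% of the controls.

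**Figure D3:**
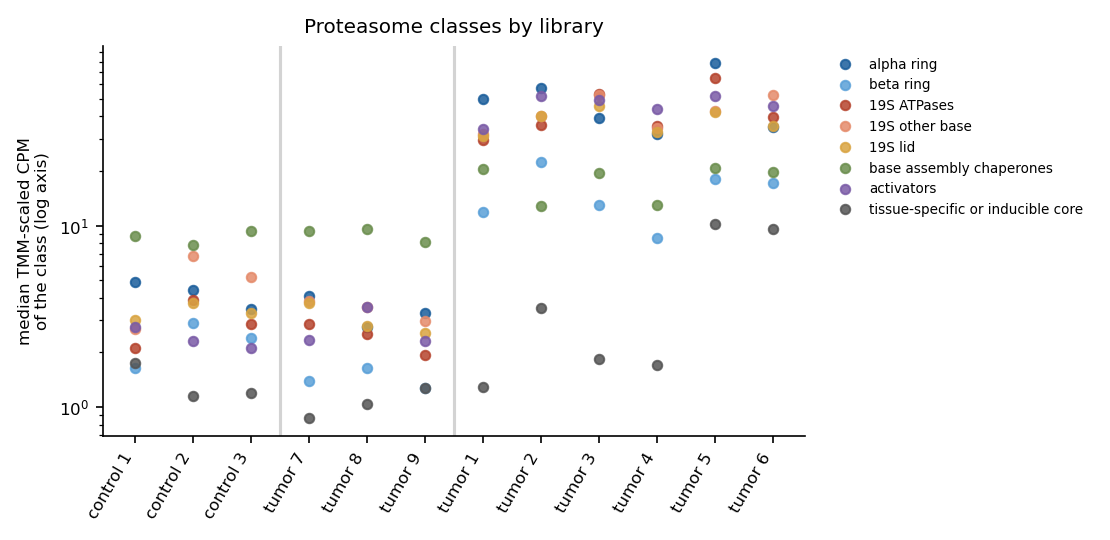
Median CPM (TMM factors) of each class of proteasome gene in the 12 libraries, on a log axis; each point is 1 class in 1 library. The controls and tumors 7 to 9 lie together, and tumors 1 to 6 lie above them in all classes but Psma8 with Psmb10, on this scaling.

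Without tumors 7 to 9, and on TMM scaling, 35 of 40 members rose and 1 fell in the same test, where 19.6% of 38567 tested genes rose and 20.3% fell. Of the core 13 of 14 rose, and of the 19S particle 16 of 17 rose. The largest log2 fold changes were those of the lid subunit Psmd7 at 4.20 and of Psmb1 at 4.12. Psmb7 rose by 3.90 (SE 0.45, adjusted p = 3.51e-05 in edgeR), Psmb6 by 2.29 (SE 0.416, adjusted p = 8.20e-04 in edgeR) and Psmb5 by 1.83 (SE 0.639, adjusted p = 0.0371 in edgeR). Among the other genes named here, Psmd14 rose by 4.10, Psme1 by 4.10, Psme3 by 3.89, Psmc4 by 3.88, Psmd4 by 3.69, Psmc3 by 3.16, Psma5 by 3.10, Psmc5 by 2.89, Psmd3 by 2.66, Psmd2 by 2.66, Psmb2 by 2.63, Psma3 by 2.41, Psmd10 by 1.56 and Psmd5 by 1.03 on the log2 scale. The medians were 2.52 for the core and 3.16 for the 19S particle, against -1.29 for all genes and 3.79 for ribosomal protein genes. The members that did not pass were Psma2 at 0.62, Psmd9 at 0.76, Psmb10 at 1.18 and Psma8 at 2.10. In this fit the tumors have the low and the controls the high background, so group and background cannot be told apart. Tumors 7 to 9 were left out because earlier results of these same data showed little messenger RNA signal in them. The adjusted p-values and the counts called in this fit, here and below, are therefore a description and not a test of tumors against controls.

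Between tumors 7 to 9 and the controls, which share a high background, 0 of 40 members were called, with 0.0247% of 36449 genes higher and 0.0247% lower. The median log2 fold change was -0.22 for the members, -0.47 for the core and -0.13 for the 19S particle, against -0.01 for all genes. At an unadjusted p below 0.05 there were 7 members and 3294 genes. The lowest was Psma5 at -0.96 (SE 0.229, adjusted p = 0.281 in edgeR). These fits share the controls with the ones above.

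**Figure D4:**
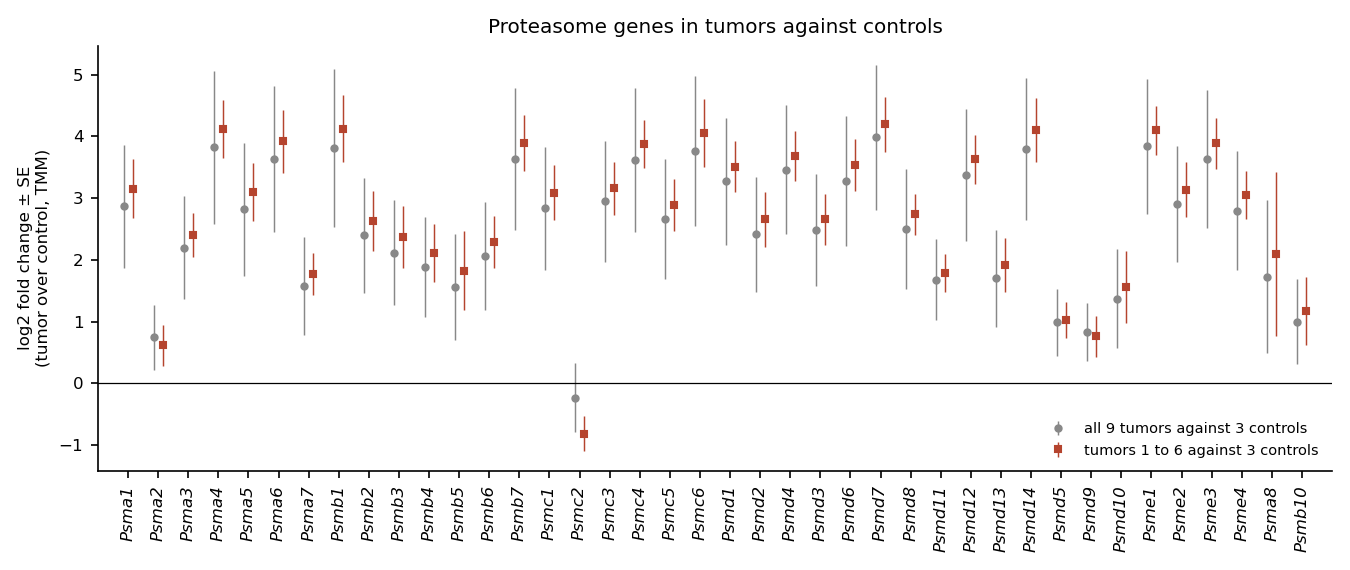
Log2 fold change of each of the 40 genes with its standard error, tumor over control with TMM factors, for all 9 tumors (circles) and for tumors 1 to 6 (squares) against the 3 controls. Psmc2 alone lies below 0; the standard errors are larger with all 9 tumors.

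Psmc2, the member that fell in the fit without tumors 7 to 9, stood apart there through a single transcript. Psmc2 (ENSMUSG00000028932, mm10 chromosome 5, 21785283 to 21803787, plus strand) encodes an ATPase of the base and had 2 quantified transcripts. The transcript annotated as a retained intron held 2892, 2878 and 2532 counts in controls 1 to 3, and tumors 7 to 9 had 2709, 2276 and 2840. Tumors 1 to 6 had 294 to 672 counts of it. The transcript that codes for the protein held 41.0, 82.3 and 56.2 counts in the controls, and tumors 7 to 9 had 43.1, 38.1 and 45.0. Tumors 1 to 6 had 165.5 to 1148 counts of it. The retained intron transcript was thus low where the coding one was high. Of the 31-base words of the retained intron transcript, 15.4% occur in other genes, 1038 of them, and of the coding transcript 0% do. At the gene level Psmc2 fell by 0.81 (SE 0.284, adjusted p = 0.0369 in edgeR) without tumors 7 to 9. With protein-coding transcripts only and all 9 tumors its log2 fold change was 2.53 (SE 0.938), and all 40 members then lay above 0, with 0 called (0% of 20594 genes higher and 0.00971% lower).

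The division between coding and retained intron transcripts seen in Psmc2 ran through the members as a set. Protein-coding transcripts held 74.3% to 83.3% of the 40 genes' counts in tumors 1 to 6, against 37.0% to 41.7% in the controls. In tumors 7 to 9 they held 35.4% to 40.4%. Retained intron transcripts held 7.94% to 14.9%, 52.0% to 55.2% and 52.6% to 57.1% in tumors 1 to 6, controls and tumors 7 to 9. Without Psmc2 and Psma2, which had the most counts in the controls, the coding part was 74.8% to 84.3%, 49.4% to 58.4% and 47.6% to 53.3%. Of the 33 members with a noncoding transcript, 21 had a higher coding part in every one of tumors 1 to 6 than in every control, as did 33.3% of the 9945 tested genes with both kinds of transcript and counts in every library. In 1 of the 33, Psma3, it was lower in every one, as in 3.98% of those genes. The 95% Wilson interval of a coding percentage was at most 1.22 percentage points wide on either side and covers counting error only.

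**Figure D5:**
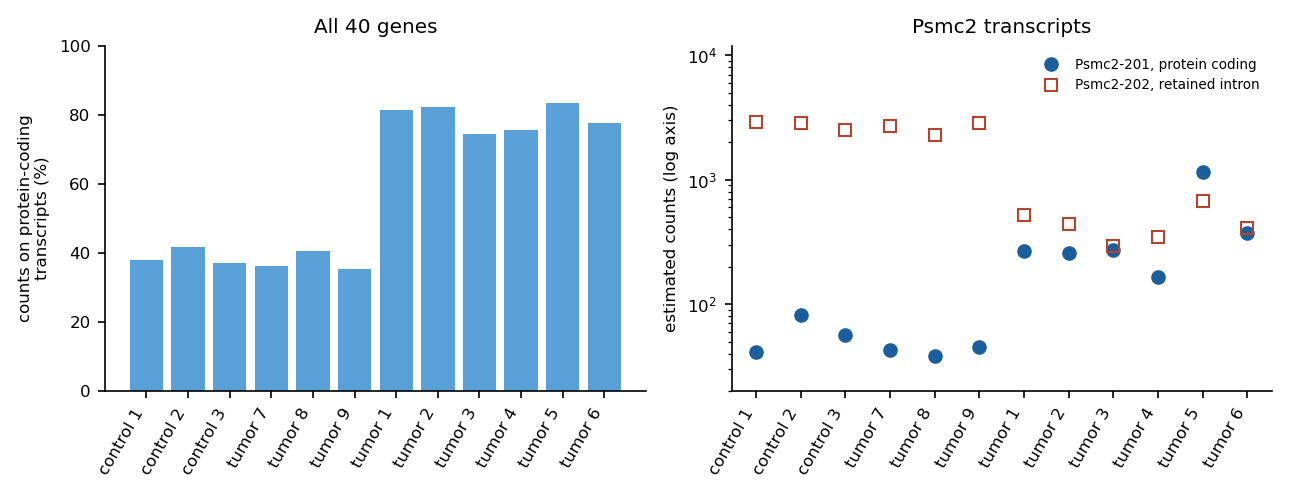
Left, percent of the estimated counts of the 40 genes on protein-coding transcripts in each library. Right, estimated counts of the 2 Psmc2 transcripts on a log axis. Coding transcripts take 74.3% to 83.3% in tumors 1 to 6 and 35.4% to 41.7% elsewhere, and the retained intron transcript of Psmc2 reaches 2276 counts or more only in the controls and tumors 7 to 9.

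Psma8, the germ cell alpha subunit, was high in 2 tumors alone by counts and on the TMM scale. It held 39, 30 and 28 counts in controls 1 to 3, 2, 4, 1 and 7 in tumors 1 to 4, 349 and 247 in tumors 5 and 6, and 16, 26 and 36 in tumors 7 to 9. In CPM this was 13.9 and 15.7 in tumors 5 and 6 and at most 1.29 in the other 10 libraries. The quantified transcript of Psma8 has no 31-base word in common with any other gene, and its longest run shared with the main transcript of Psma7 is 17 bases. Relative to the median subunit of the same tumor, Psma8 stood at 0.191 and 0.316 in tumors 5 and 6, against 1.45 and 1.16 for Psma7. Its log2 fold change in all 9 tumors was 1.73 (SE 1.24, adjusted p = 0.567 in edgeR), and with tumors 1 to 3 alone it was -2.03. Leaving out single libraries gave 1.05 to 1.89, positive in each of these fits, all of which hold tumor 5 or tumor 6.

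The other genes of the pathway, 34 in all, followed the members. In all 9 tumors 0 of 34 were called, where 0% of all tested genes were called higher and 0.00494% lower. The median log2 fold change was 2.74, against -0.45 for all genes. Without tumors 7 to 9, 32 rose and 1 fell, where 19.6% of all tested genes rose and 20.3% fell. Psmg3, an assembly chaperone, did not pass at -0.51. The median was 2.95, against -1.29 for all genes, and in this fit group and background cannot be told apart. Between tumors 7 to 9 and the controls 0 were called, where 0.0247% of all tested genes were called higher and 0.0247% lower. The median was -0.07, against -0.01 for all genes. In the fit without tumors 7 to 9, Psmb11, the catalytic subunit of cortical thymic epithelium, fell by 1.60 (SE 0.417, adjusted p = 0.00887 in edgeR). The median of all genes in that fit was -1.29, with 20.3% called lower. Its values were 16.95, 12.8 and 12.7 CPM in controls 1 to 3, and tumors 7 to 9 had 20.9, 15.5 and 14.9 CPM. Tumors 1 to 6 had 2.14 to 9.83 CPM (median 6.12), below all others.

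For 5 groups of these 34 the gene with the highest mean TPM in tumors 1 to 6 is given. Pomp, a chaperone of core assembly, was at 5.99 to 7.22 CPM in the controls. Tumors 1 to 6 had 14.3 to 23.0 CPM, and Pomp rose by 1.21 on the log2 scale in the fit of these 6 tumors. Psmb8, the inducible catalytic subunit that replaces Psmb5, was at 1.63 to 3.13 CPM in the same controls and 34.6 to 53.3 CPM in the same tumors, and rose by 4.07. The mean of Psmb8 in tumors 1 to 6 was 10.2 ± 2.96 TPM, against 1.87 ± 1.73 for Psmb5 (SD, n = 6). Uchl5, a deubiquitinase of the regulatory particle, was at 19.6 to 27.3 and 74.5 to 218 CPM, and rose by 2.26. Nfe2l1 was at 4.94 to 6.27 and 12.7 to 33.9 CPM, and rose by 1.73. Vcp, the unfoldase that passes substrates on, was at 4.31 to 8.75 and 89.4 to 237 CPM, and rose by 4.26. In tumors 7 to 9 these 5 genes ranged from 5.17 to 7.11 CPM for Pomp, 1.19 to 2.52 for Psmb8, 13.9 to 27.2 for Uchl5, 7.87 to 11.7 for Nfe2l1 and 4.57 to 7.78 for Vcp.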

How the data were processed

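The authors deposited estimated counts and TPM for each transcript of the 12 libraries, computed with kallisto, per the file headers and the submitters' processing notes. FastQC and the build mm10 are named there too, without versions. The release of the transcript index is not given in the sources used. Each table holds 128622 transcripts of 51826 genes. Estimated counts were summed per gene and rounded, and TPM values summed. edgeR 4.0.16 (quasi-likelihood test, TMM factors, filterByExpr, R 4.3.3) was fitted to all genes with Benjamini-Hochberg adjustment, and checked on simulated data. Alternatives used DESeq2 1.42.0 and limma 3.58.1 on log2(TPM + 1) and log2(TPM + 0.1), other filters, library totals, coding transcripts only, and sets of libraries. Coordinates came from GENCODE M21, and promoters from RefSeq GRCm38.p6. The members and lists were chosen with earlier results of these data known. The genes named are the catalytic subunits Psmb5, Psmb6 and Psmb7, Psmb10 and Psma8, the highest and lowest member by mean TPM in each class, and the 2 steadiest and 2 least steady subunits over tumors 1 to 6; other names were added after their values were seen. 31-base sharing was counted on GENCODE M21 sequences, which held 124307 of the transcripts. All 12 libraries were used. One gene of the pathway list is not reported here by name.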

Additional observations from a re-analysis of the deposited data

Results flagged for a closer look

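Dixon's criterion at 95% was applied to the TMM-scaled CPM of the 9 tumors and to the core over 19S ratios, 39 groups in all, of which 2 passed; chance passes about 1 in 20. Tumor 5 held 10.24 CPM of Psmb5, the catalytic subunit with chymotrypsin-like activity, and the next tumor held 5.416. Tumor 5 also held 103.6 CPM of Psmd14, the deubiquitinase of the lid, and the next tumor held 51.84.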

How the results depend on the processing

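The count of 0 members called in all 9 tumors, and the 19 named log2 fold changes, kept direction and side of the threshold with RLE factors, without the low-count filter, with coding transcripts only and with at least 50 counts in 3 libraries, where 37 members and 16 of the 19 named genes could be tested. Leaving out each library in turn gave 0 called, core medians of 1.87 to 2.44 and 19S medians of 2.46 to 3.11 on the log2 scale, and a log2 core over 19S ratio of 0.15 (without tumor 5) to 0.31 (without tumor 3). That ratio was 0.49 with coding transcripts, 0.08 as a mean of log2 TPM with 3 of 6 tumors above 0, and 0.25 over tumors 1 to 9. DESeq2 called 24 higher. Without tumors 7 to 9, 35 were higher and 1 lower. With library totals the median was -0.048 for the core and 0.54 for the 19S particle, and 8 named genes changed sign: Psmb5 -0.62, Psmb6 -0.31, Psmb10 -1.05, Psma8 -0.022, Psma3 -0.12, Psmd5 -1.01, Psmd10 -0.91 and Psmb2 -0.0022. On log2(TPM + 1), limma called 5 members lower (79.3% of all genes), the medians were -0.75 and -0.40, and 14 named genes changed sign: Psmb5 -0.97, Psmb6 -0.95, Psmb10 -1.10, Psma8 -0.61, Psma3 -0.038, Psma5 -0.77, Psmc3 -0.15, Psmc5 -0.40, Psmd2 -0.94, Psmd3 -0.41, Psmd5 -0.87, Psmd10 -0.70, Psme3 -0.43 and Psmb2 -0.73. On log2(TPM + 0.1), 4 members were lower (76.6% of all genes), the medians were -0.95 and -0.55, and 16 changed sign: Psmb5 -1.51, Psmb6 -1.15, Psmb10 -1.59, Psma8 -1.74, Psma3 -0.061, Psma5 -1.01, Psmc3 -0.20, Psmc5 -0.59, Psmd2 -1.14, Psmd14 -0.013, Psmd3 -0.56, Psmd5 -1.06, Psmd10 -1.37, Psme3 -0.57, Psmc4 -0.0501 and Psmb2 -0.92. For tumors 7 to 9 against controls the medians were -0.47 and -0.13, and 15 changed sign: Psmb5 -0.86, Psmb6 -0.83, Psmb7 -0.049, Psmb10 -0.56, Psma8 -0.12, Psma3 -0.15, Psma5 -0.96, Psmc3 -0.095, Psmc5 -0.53, Psmd2 -0.52, Psmd3 -0.13, Psmd5 -0.028, Psmd10 -0.75, Psmc4 -0.40 and Psmb2 -0.57. The causes of these changes were not tested.

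The replicate numbers in the labels showed no sign of pairing: deviations from the group means correlated by -0.034, 0.046 and 0.013 for numbers 1 to 3. The controls have a high background and tumors 1 to 3 a low one, so these values cannot decide whether the libraries were paired. With the replicate number as a block, controls 1 to 3 and tumors 1 to 3 gave 36 members higher and 0 lower (22.5% and 5.07% of all genes), with Psma8 at -2.10. The same 6 libraries without the block, a fit chosen after seeing the data, gave 38 higher and 1 lower (24.2% and 9.9%), Psma8 at -2.03. Depth limits Psma8, Psmb5, Psmb10 and Psmd10 most, each with under 100 counts in most libraries. Psmb2, Psmb3, Psmb4, Psmb6, Psmd13 and Psme2 also had under 100 counts in most libraries, so depth limits these genes too.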

Other observations

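Psma8 was looked at beside its chromosomal neighbors and beside other germ cell genes, a set chosen after its values were seen. The neighbor Ss18 was at 86.5 and 57.1 CPM in tumors 5 and 6 and at 36.7 to 77.5 CPM in tumors 1 to 4. The neighbor Taf4b was at 13.5 and 19.4 CPM in tumors 5 and 6 and at 10.8 to 21.5 CPM in tumors 1 to 4. Both neighbors thus overlapped between these tumors. Of 9 other germ cell genes, Dazl held 0 and 3 counts in tumors 5 and 6, Ddx4, Mael, Meioc, Hormad1 and Tex101 held 0 in both, Sycp1 held 10 and 0, Sycp3 held 12 and 14, and Smc1b held 13 and 3. Psma8, at 349 and 247 counts, thus lay above all 9 of these germ cell genes in both tumors.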
